A study of Mus musculus with 18 samples.

Results

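RNA of the middle and the base of the cochlea of Fst cKO mice, which carry a conditional knock-out of the follistatin gene, was compared: 3 libraries of cKO middle against 3 of cKO base, out of 18 libraries in the series. The other 12 are cKO apex and the base, middle and apex of control mice, whose genotype is given as WT. All mice were 4 weeks old. Per the labels, each region of a genotype was collected in 1 pool of RNA, and that RNA was split into 3 technical libraries, made by the TruSeq method after removal of ribosomal RNA. The Cre driver, the strain and the number of mice in a pool are not given in the sources used here. Each side of the comparison is therefore 1 pool, and every p-value below carries the spread between libraries of a pool, not between mice. Of 46583 genes in the deposited table, 17901 had enough counts to be tested.

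The cochlea is a coiled duct in which the base responds to high and the apex to low frequencies of sound, and the middle turn lies between them. Follistatin is a secreted protein that binds activins and some bone morphogenetic proteins (BMPs) and keeps them from their receptors. In the developing cochlea it is known from the apical side of the duct, opposite to signals that are stronger at the base. The region around the duct holds hair cells, supporting cells, the tectorial membrane, the stria vascularis, fibrocytes of the spiral ligament, the neurons of the spiral ganglion with their Schwann cells, and a bony wall with marrow.

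The 6 libraries held 25860600 to 33732709 counts, with the middle libraries deeper than the base libraries, and 3 counts, the most that a library with 0 observed can be taken to hide, equal 0.0889 to 0.116 CPM (counts scaled to a library of 1000000). Reads carry no molecular identifiers, so floors and intervals cover counting error only. A gene is called when its adjusted p in edgeR's quasi-likelihood test is under 0.05 and its log2 fold change, middle minus base, is at least 1 in size, that is a fold of 2. Errors after log2 changes are approximate: each is the size of the change divided by the square root of its F value in that test. For genes near 0 counts they can be far off. Errors after CPM values are SDs of 3 libraries. By this rule 584 genes were called in the cKO, 3.26% of those tested. Of these, 343 (1.92%) were higher and 241 (1.35%) lower in the middle. Without the fold threshold 8310 genes pass (46.4%), 4205 higher (23.5%) and 4105 lower (22.9%). The called genes include many of low level: 199 reach 5 CPM in the higher region and 201 stay under 1 CPM there. The median log2 change of all genes tested was -0.0012. Defining genes of the cochlea were abundant on both sides, with Coch, the gene of cochlin, at 22889 and 18590 CPM and Otos, the gene of otospiralin, at 6938 and 4143 in base and middle. In a bulk pool, fewer cells of a type and less RNA per cell cannot be told apart.

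Fst itself was higher in cKO middle than in cKO base without being called. Its counts were 51, 49 and 45 in cKO base and 91, 97 and 114 in cKO middle, or 1.86 ± 0.122 and 2.99 ± 0.348 CPM (SD, n = 3 libraries). The groups do not overlap, but the change of 0.65 ± 0.14 stayed under the fold threshold (edgeR, adjusted p = 0.000136). In control mice the same step was 1.54 ± 0.11, from 2.17 to 6.37 CPM, and the difference between the steps was -0.89 ± 0.18 (adjusted p = 0.000199), which passes on p and not on the fold threshold. The gene lies at ENSMUSG00000021765, minus strand, chromosome 13, 114452290 to 114458951 (GRCm38/mm10), and reads from an allele without part of its exons can still count toward it.

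Genes known from neurons of the cerebellum, the hindbrain structure next to the petrous bone, were far lower in cKO middle than in cKO base. Other genes, which include nicotinic receptor subunits, a tachykinin and voltage-gated potassium channels, were far higher in cKO middle. Of the 12 genes with the largest falls and at least 5 CPM in the higher region, 7 (among them Gabra6, Pcp2, Pax6, Neurod1, Cbln3 and En2) stand on the list of cerebellar neurons, where 18 of 25 members tested were called lower and 0 higher, beside the 1.35% of all genes called lower. The list was chosen with earlier results of these data known, so its count is not independent evidence. Its median was -2.61 in the cKO and 0.00 in the control step, where 3 members were called higher (all genes 1.53%) and 0 lower (all genes 1.2%). Some members, such as Gabra6, stand near the floor in both control regions, so a control step could hardly be seen for them.

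Gabra6, the GABA receptor subunit known from cerebellar granule cells (ENSMUSG00000020428, minus strand, chromosome 11, 42306437 to 42321072), stood at 22, 22.4 and 21.2 CPM in the cKO base libraries and at 0.0894, 0 and 0.0296 in cKO middle. Its mean was 0 CPM in control base, control apex and cKO apex and 0.023 in control middle. Cbln3 (ENSMUSG00000040380, minus strand, chromosome 14, 55878913 to 55884392), a secreted synaptic protein of granule cells, stood at 62.7, 63.7 and 63.8 CPM in cKO base against 1.19, 1.54 and 1.3 in cKO middle. Both are among the genes chosen for the largest falls, so all base libraries lie far above all middle libraries by that choice. Their log2 changes were -8.99 ± 0.21 (edgeR, adjusted p = 6.26e-25) and -5.58 ± 0.069 (adjusted p = 6.04e-37).

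Pcp2 (Purkinje cell protein 2, ENSMUSG00000004630, minus strand, chromosome 8, 3623371 to 3625545) followed the same course, with 9.55, 11 and 10.4 CPM in cKO base and 0.149, 0.148 and 0.0296 in cKO middle, a change of -6.54 ± 0.29. Its mean in the other 4 groups was 0.171 in control base, 0.127 in control middle, 0.128 in control apex and 0.173 in cKO apex. Neurod1, a transcription factor of granule cells and of developing inner ear neurons, went from 17.9 to 0.376 CPM (-5.58 ± 0.14), Pax6 from 5.32 to 0.0792 (-6.02 ± 0.28) and En2 from 7.45 to 0.218 (-5.10 ± 0.24). The genes named here from granule cells and from Purkinje cells were thus lower in the middle. Other members of the list, such as Itpr1 and Calb1 below, were not called. Slc1a6, the glutamate transporter gene of Purkinje cells, changed by -2.61 ± 0.12, Car8 by -3.08 ± 0.076 and the synaptic organiser gene Cbln1 by -3.05 ± 0.058, all as log2 changes. Barhl2 had 170 counts in cKO base and 2 in cKO middle, a count ratio of 110.3 (95% interval 30.1 to 919).

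The members that were not called include the most abundant of the list. Itpr1, the calcium release channel gene, stood at 793 CPM in cKO base and 580.4 in cKO middle (-0.48), Zic2 at 272 and 222 (-0.33), and Calb1, a calcium-binding protein gene, at 24.9 and 47.6 (0.91). The summed level of the 26 members was 1565 to 1574 CPM in base and 966 to 972 in middle, and Itpr1 alone held more than any other member in both regions. No member was at 0 in either region.

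Genes of inhibitory transmission were lower in cKO middle as well. Slc32a1, the vesicular transporter of GABA and glycine, had 406 counts in cKO base and 2 in cKO middle, a ratio of 264 (95% interval 72.5 to 2184). The GABA synthesis genes Gad1 (16.8 to 4.48 CPM, -1.94 ± 0.09) and Gad2 (4 to 0.0891, -5.45 ± 0.30) and the glycine transporter gene Slc6a5 (1.26 to 0.099, -3.64 ± 0.36) fell as well. Of 15 genes tested on the list of brain transmitters and peptides, 6 were lower (all genes 1.35%) and 5 higher (all genes 1.92%), with a median of -0.22. The increases on that list were of other kinds: Slc17a6, the vesicular glutamate transporter VGLUT2 (24.5 to 90, 1.85 ± 0.035), Tac1, Penk (2.87 to 7.21, 1.30 ± 0.12), Ddc (0.308 to 1.83, 2.52 ± 0.28, but 0.88 with limma on log2(FPKM + 1)) and Vip, at 0 counts in base and 52 in middle (at least 13.4-fold higher). Rgs8, Neurod2 (6.14 to 0.129, -5.56 ± 0.24), Cnpy1 (16.7 to 0.564, -4.91 ± 0.14) and Gng13 (5.72 to 0.247, -4.54 ± 0.26) were lower too. Mybpc3, which encodes a myosin-binding protein of heart muscle, had 551 counts in base and 3 in middle, a ratio of 238 (95% interval 81.2 to 1160).

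Of 15 oligodendrocyte and astrocyte genes tested, 5 were lower (all genes 1.35%) and 0 higher in cKO middle, with a median of -0.66. This list, too, was chosen with earlier results of these data known, so its counts are not independent evidence. Mobp, a gene of central myelin, went from 31.7, 32.5 and 34.1 CPM in cKO base to 14.3, 13.9 and 13 in cKO middle (-1.28 ± 0.046), and the transcription factor gene Olig1 from 2.92 to 0.535 (-2.47 ± 0.21). Mog (-1.27 ± 0.16), Olig2 (-2.68 ± 0.43) and Ermn (-1.001 ± 0.27) completed the called members. In the control the step went the other way, with 9 of 15 higher in the middle (all genes 1.53%) and Mobp at 21.4 CPM in base against 97.3 in middle. The difference between the steps was called for 10 members, each more negative in the cKO (all genes 2.54%). The summed level of this list was 6079 to 6123 CPM in base and 5001 to 5054 in middle, most of it S100b (5716 and 4712 CPM), which is not particular to the brain. Ermn loses its call when cKO base library 2 is left out (-0.99) or cKO middle library 2 (-0.77), and with limma on log2(FPKM + 1) Olig1 (-0.98), Mog (-0.75) and Ermn (-0.20) stay under the threshold. What brain material contributes to these pools, cKO base and cKO middle alike, was not tested.

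**Figure D1:**
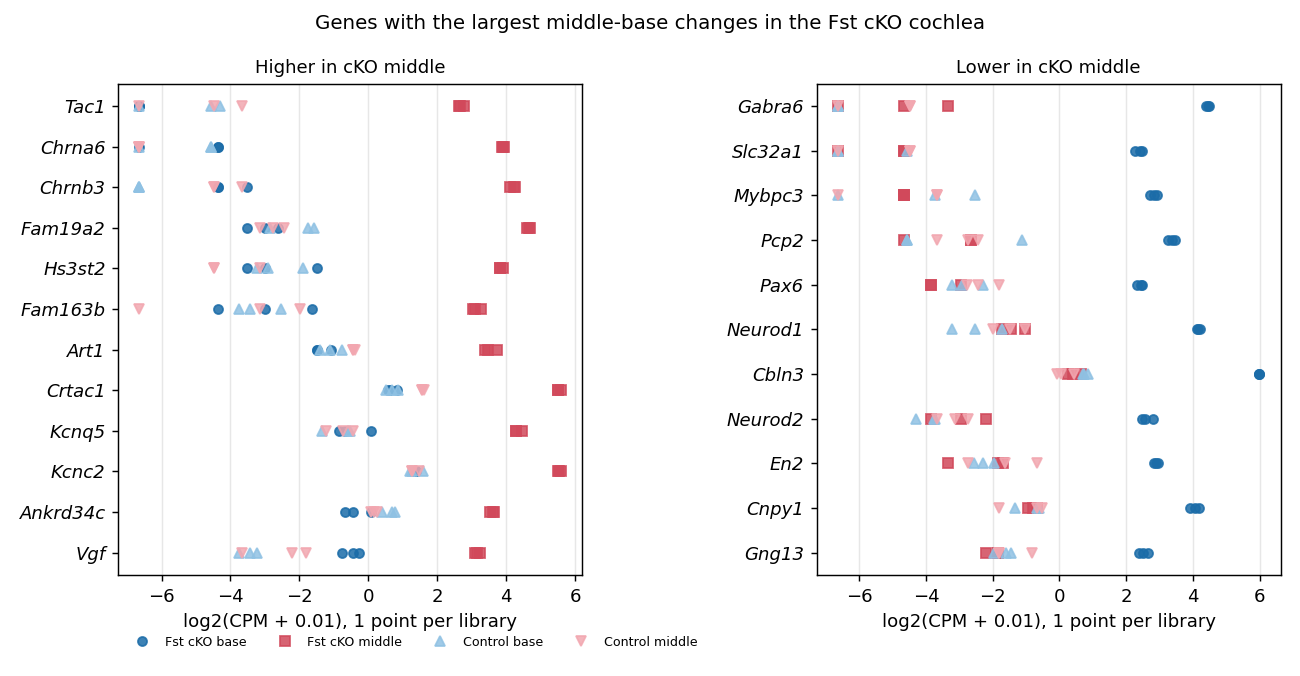
CPM per library, as log2(CPM + 0.01), for the 12 genes with the largest increases (left) and for 11 of the 12 with the largest decreases (right) from cKO base to cKO middle, with control base and middle for reference; each point is 1 library. The genes were chosen by the size of this change, so cKO middle libraries stand apart on the left and cKO base libraries on the right by that choice. Gabra6 stood at 21.9 CPM in cKO base.

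Of the 12 genes with the largest increases, Tac1, Chrna6, Chrnb3, Fam19a2, Hs3st2 and Fam163b had means of at most 0.249 CPM in each of the other 5 groups. Tac1, the precursor gene of substance P (ENSMUSG00000061762, plus strand, chromosome 6, 7554879 to 7565834), had 211, 208 and 229 counts in the cKO middle libraries and 0 in each cKO base library, which makes it at least 166-fold higher. Chrna6, a nicotinic acetylcholine receptor subunit gene (ENSMUSG00000031491, minus strand, chromosome 8, 27403212 to 27413944), stood at 14.9, 15.3 and 14.6 CPM in cKO middle. In cKO base there were 2 Chrna6 counts in all, a ratio of 582 (95% interval 161 to 4807). Chrnb3, the gene of another subunit, lies next to it (ENSMUSG00000031492, plus strand, chromosome 8, 27368711 to 27399730), with 3481 bases between the genes as annotated. It stood at 17.2, 18.6 and 19.3 CPM in cKO middle and 0.0387, 0.0385 and 0.077 in cKO base, a log2 change of 8.34 ± 0.20 (edgeR, adjusted p = 1.69e-25). Both neighbours were thus higher in the middle. For Chrnb3 the difference from the control step, where the counts are close to 0, was not called (4.79 ± 30.66, adjusted p = 0.934).

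Fam19a2, which encodes a small secreted protein, went from 0.116 to 25.3 CPM (7.69 ± 0.18) and Hs3st2, a heparan sulfate sulfotransferase gene, from 0.18 to 14.4 (6.26 ± 0.21). The potassium channel genes Kcnc2 (Kv3.2) and Kcnq5 (Kv7.5) rose from 2.53 to 46.7 CPM (4.17 ± 0.076) and from 0.732 to 20.4 (4.76 ± 0.13). These channels set how fast neurons repolarise and how excitable they are. Crtac1, the gene of a secreted matrix protein, rose from 1.59 to 46.3 (4.83 ± 0.082), Vgf, a neuropeptide precursor gene, from 0.707 to 8.96 (3.63 ± 0.16), Art1, an ADP-ribosyltransferase gene, from 0.385 to 11.6 (4.87 ± 0.18), Fam163b from 0.154 to 8.82 (5.77 ± 0.26) and Ankrd34c from 0.797 to 12.1 (3.89 ± 0.14). That the 3 middle libraries lie above the 3 base libraries for all 12 follows from their choice by size of change and is no further support.

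Onecut1 and Onecut2, transcription factor genes of the cut homeobox family, were higher in cKO middle too. Onecut1 had 349 counts there and 0 in cKO base (at least 89.6-fold higher), and Onecut2 rose from 4.15 to 11.9 CPM (1.49 ± 0.094). The list of 10 neuronal genes to which they, Tac1, Chrna6 and Chrnb3 belong was chosen for being higher in cKO middle than in control middle, so it shares the cKO middle libraries and is not independent evidence. What tissue beside the cochlea contributes to the genes high in cKO middle was not tested. Against cKO base, 9 of the 10 were higher and 1, Rgs8, was lower (34 to 10.1 CPM, -1.78 ± 0.062). The list median was 6.98, or 6.37 with members at 0 counts set at their bound.

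Promoter sequences are shown for 3 genes that separate the regions: Gabra6, first among the genes lower in cKO middle, Tac1, first among those higher, and Tecta, a gene of the tectorial membrane. They are the 250 bases before the start of transcription that RefSeq gives, 5′ to 3′ on the gene's strand, from RefSeq on GRCm38.p6 (chr11:42321073-42321322, minus strand for Gabra6, chr6:7554811-7555060, plus strand for Tac1 and chr9:42401691-42401940, minus strand for Tecta). For Tac1 and Tecta that start differs from the end of the gene in the GENCODE positions printed here, and motif distances count from the RefSeq start. Capitals mark matches, on either strand, to ATCAAT, a core that Onecut factors are known to bind, and to CAGATG, an E-box that NeuroD factors are known to bind.
Gabra6: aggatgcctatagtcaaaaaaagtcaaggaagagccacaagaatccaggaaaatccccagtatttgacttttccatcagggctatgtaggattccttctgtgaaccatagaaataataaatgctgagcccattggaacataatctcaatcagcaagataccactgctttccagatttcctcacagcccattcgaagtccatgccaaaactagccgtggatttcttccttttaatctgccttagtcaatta
Tac1: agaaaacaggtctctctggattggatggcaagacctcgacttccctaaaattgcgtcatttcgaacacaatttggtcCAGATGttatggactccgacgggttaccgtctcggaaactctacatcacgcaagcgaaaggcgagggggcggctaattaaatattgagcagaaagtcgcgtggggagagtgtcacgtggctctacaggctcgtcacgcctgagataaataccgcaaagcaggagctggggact
Tecta: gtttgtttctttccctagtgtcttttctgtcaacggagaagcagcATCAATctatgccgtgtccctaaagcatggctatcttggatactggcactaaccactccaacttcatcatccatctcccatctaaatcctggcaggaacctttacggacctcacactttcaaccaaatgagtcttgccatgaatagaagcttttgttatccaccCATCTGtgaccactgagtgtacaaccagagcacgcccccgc
The Gabra6 window holds neither motif, Tac1 holds 1 E-box 173 bases before the start, and Tecta holds ATCAAT 205 and an E-box 41 bases before it. Over the first listed promoter of each gene, ATCAAT was found in 22 of 215 genes called higher in cKO middle (10.2%), in 7 of 161 called lower (4.35%), in 3.63% of the promoters of genes tested and in 6.97% of all 27025 promoters. CAGATG was found in 13.0%, 13.0%, 10.6% and 14.5%, in the same order. The motifs cannot share letters on either strand, and the groups of promoters differ in base composition: the median share of G and C was 56.0% in promoters of genes called higher, 57.2% in those called lower, 59.2% in those of genes tested and 52.0% in all.

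Spiral ganglion neurons carry signals from hair cells to the brain stem. Of 26 of their genes tested, 3 were called higher and 0 lower, beside 1.92% of all genes called higher, and 19 were higher by adjusted p alone (all genes 23.5%). The list median was 0.61, against 0.17 in the control step. Nefl, the light neurofilament gene, stood at 455, 457 and 470.1 CPM in cKO base and 949, 951 and 938 in cKO middle, and Nefm, the medium one, at 484, 475 and 483 and 1010, 1017 and 1007. Every middle library is above every base library, and both changes sit just past the fold threshold (1.01 ± 0.0087 and 1.04 ± 0.0089). Nefl falls to 0.9996 without cKO base library 1, under the fold threshold. Pou4f1, a transcription factor gene of sensory neurons, rose from 5.5 to 18.8 CPM (1.74 ± 0.079). Others stayed under the threshold, such as Tubb3 (0.92 ± 0.022), the synaptic gene Snap25 (0.83 ± 0.007), Pvalb (0.73 ± 0.02) and Calb2 (0.56 ± 0.012). In control base Nefl stood at 751 CPM and in control middle at 902, while Pou4f1 stood at 9.58 and 10.2. The libraries of cKO base are the lowest of all 6 groups for both genes.

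Channel genes were called in both directions. Of 22 potassium, sodium and pacemaker channel genes tested, 4 were higher (all genes 1.92%) and 2 lower (all genes 1.35%), and 17 were higher by adjusted p alone (all genes 23.5%; median 0.66). Kcnb2 (Kv2.2) rose from 7.18 to 46.5 CPM (2.67 ± 0.052), Kcnh7 from 10.5 to 30.9 (1.52 ± 0.052) and Kcnd3 from 8.21 to 18.9 (1.17 ± 0.068). Kcnd2 (7.61 to 3.53, -1.13 ± 0.10) and the sodium channel gene Scn2a1 (21 to 10.6, -1.02 ± 0.054) fell, Scn2a1 only just (-0.99 without cKO middle library 2). With limma on log2(FPKM + 1) Kcnd3 (0.86), Kcnh7 (0.91), Kcnd2 (-0.58) and Scn2a1 (-0.43) stay under the fold threshold. Of 17 Schwann cell and peripheral myelin genes 0 were called, 16 were higher by adjusted p alone (all genes 23.5%), and the median was 0.40.

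**Figure D2:**
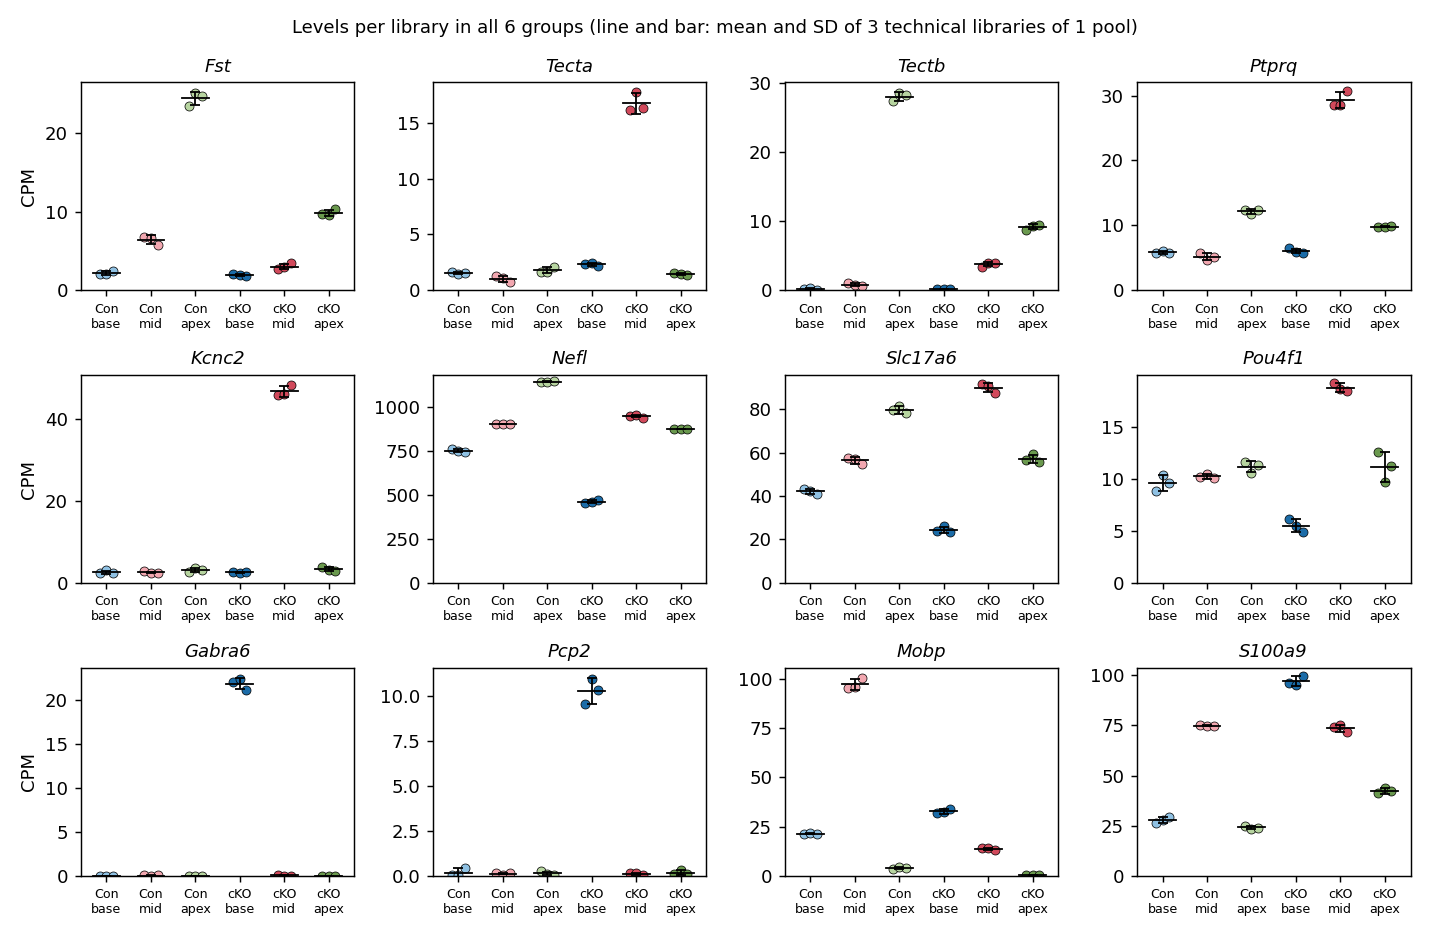
CPM of 12 genes in every library of all 6 groups (points), with the mean (line) and SD (bar) of the 3 technical libraries of each pool. Gabra6 and Pcp2 are high in cKO base, Tecta, Ptprq, Kcnc2 and Pou4f1 in cKO middle, Mobp in control middle and Fst and Tectb in control apex. Nefl and Slc17a6 are lowest in cKO base and S100a9 is highest there.

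Hair cells turn movement of their stereocilia into electrical signals, and part of their genes were higher in cKO middle. Of 25 hair cell genes tested, 7 were called higher (all genes 1.92%) and 0 lower, and 19 were higher by adjusted p alone (all genes 23.5%), with a median of 0.75 against 0.18 in the control step. Ptprq, which encodes a phosphatase of the stereocilia shaft (ENSMUSG00000035916, minus strand, chromosome 10, 107517049 to 107720051), stood at 6.42, 5.81 and 5.77 CPM in cKO base and 28.6, 28.6 and 30.7 in cKO middle (2.26 ± 0.061, edgeR, adjusted p = 1.08e-26). Xirp2, an actin-binding protein gene of stereocilia, rose from 0.643 to 3.12 CPM (2.24 ± 0.19), and Strc, the gene of stereocilin, which joins the tips of stereocilia, from 5.17 to 11.6 (1.14 ± 0.086). Further increases were Loxhd1 (1.04 ± 0.079, and 0.99 without cKO middle library 2), Rasd2 (1.59 ± 0.16), the transcription factor gene Lhx3 (1.49 ± 0.23) and Chrna10, a subunit of the efferent receptor (1.13 ± 0.079). As annotated, Chrna10 overlaps the other strand's Art1, which rose far more. What reads of the shared stretch add to Chrna10 was not tested. With limma on log2(FPKM + 1) Strc (0.65), Loxhd1 (0.76), Rasd2 (0.65), Lhx3 (0.61) and Chrna10 (0.84) lose their calls on the fold threshold, while Ptprq keeps its call (1.44) and Xirp2 is not tested there for its low FPKM. Other hair cell genes did not pass the fold threshold: Otof stood at 0.82 ± 0.032, Myo15 at 0.75 ± 0.043, Pou4f3 at 0.76 ± 0.083, Tmc1 at 0.80 ± 0.07 and Myo7a at 0.44 ± 0.037. By adjusted p alone, Myo6 (-0.078 ± 0.016) and Whrn (-0.11 ± 0.027) were lower.

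Of 10 outer hair cell genes tested 2 were higher (all genes 1.92%), Chrna10 among them, with a list median of 0.46. The motor protein gene Slc26a5 (3.66 to 5.76 CPM, 0.62 ± 0.095) and Ocm (38.1 to 47.8, 0.30 ± 0.032) were not called. Of 8 inner hair cell genes 0 were called (median 0.19), with Slc17a8, the glutamate transporter VGLUT3 of inner hair cells, at 0.35 ± 0.064. Ptprq and Xirp2 thus had larger changes than these defining genes of outer and inner hair cells. Genes known from vestibular organs were counted beside them, since those organs lie next to the base of the cochlea and hold hair cells too. Of 12 vestibular and otoconial genes tested 0 were higher (all genes 1.92%) and 1 was lower (all genes 1.35%), Nox3 (0.707 to 0.297 CPM, -1.27 ± 0.33, but -0.96 with limma on log2(FPKM + 0.1)), with Oc90, the main otoconial protein gene, at 0.629 and 0.435 CPM and Otop1 at 16.3 and 23.8 (0.52 ± 0.05). The summed level of that list was 10733 to 10772 CPM in base and 9303 to 9358 in middle, most of it from Spp1 (7868 and 6359 CPM), which many cells express.

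The tectorins were higher in cKO middle. They are the main proteins of the tectorial membrane that belong to no collagen family, and they are also found in the gels of vestibular organs. Tecta, the gene of alpha-tectorin (ENSMUSG00000037705, minus strand, chromosome 9, 42329619 to 42399929), stood at 2.32, 2.39 and 2.16 CPM in cKO base and 16.1, 17.8 and 16.4 in cKO middle, a change of 2.84 ± 0.099 (edgeR, adjusted p = 2.52e-23). Tectb, the gene of beta-tectorin (ENSMUSG00000024979, plus strand, chromosome 19, 55180733 to 55196313), had 2, 2 and 3 counts in cKO base and 114, 133 and 132 in cKO middle, or 0.0899 to 3.75 CPM on average (5.29 ± 0.27, adjusted p = 1.46e-18). Both genes are separated without overlap, yet they differ across the other groups: mean Tectb was 28.1 CPM in control apex and 9.13 in cKO apex, while mean Tecta was 1.76 and 1.45 there. Otol1, which encodes the collagen-like otoconial matrix protein otolin, rose from 0.989 to 4.85 CPM (2.26 ± 0.18). Otog, the gene of otogelin, stood at 92.3 and 159.9 CPM (0.76 ± 0.024) and Otogl at 14.8 and 29.8 (0.98 ± 0.044), both under the fold threshold. The collagens of the membrane were lower without being called, from -0.53 ± 0.0068 for Col11a2 to -0.32 ± 0.016 for Col9a2. The list as a whole thus had 3 of 13 higher (all genes 1.92%), 0 lower and a median of -0.32.

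Supporting cell, stria and spiral ligament genes were counted beside the 3.26% of all genes called. Of 22 supporting cell genes tested 1 was higher (all genes 1.92%) and 0 were lower (median 0.028). The 1 was Ngfr (34.5 to 78.9 CPM, 1.17 ± 0.034), the low-affinity neurotrophin receptor that Schwann cells use as well. Sox2 stood at 0.80 ± 0.077 and the gap junction gene Gjb2 at -0.28 ± 0.0055. Among stria vascularis and marginal cell genes, which move potassium into endolymph, 0 of 15 were called, while 12 were lower by adjusted p alone (all genes 22.9%; median -0.25), such as Kcne1 (-0.22 ± 0.018) and Kcnj10 (-0.41 ± 0.014). Fibrocyte genes had 0 of 12 called, 11 lower by adjusted p alone (all genes 22.9%), a summed level of 35045 to 35168 CPM in base and 27100 to 27223 in middle, and a median of -0.35, close in value to the -0.33 of the control step, with Otos at -0.77 ± 0.0051 and Coch at -0.33 ± 0.0018. Of 12 melanocyte genes Pmel rose (all genes 1.92%; 3.42 to 8.6, 1.30 ± 0.10) and Mlana fell (all genes 1.35%; 17.1 to 8.55, -1.03 ± 0.068), with 9 lower by adjusted p alone (all genes 22.9%) and a median of -0.23. Pmel is under the fold threshold with limma on log2(FPKM + 1) (0.95). Mlana loses its call without cKO middle library 3 (-0.98). Reissner's membrane and mesothelium had 0 of 4 called (median -0.43) and macrophages 0 of 12, with 9 lower by adjusted p alone (all genes 22.9%; median -0.27). Of 14 endothelium and pericyte genes only Acta2, smooth muscle actin, was called, lower in the middle (all genes 1.35%; 33.8 to 14.5, -1.25 ± 0.042, median -0.092).

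Genes of pathways around follistatin were counted beside the 3.26% of all genes called. Of 35 activin, BMP and follistatin genes tested, 0 were higher and 2 lower (all genes 1.35%), Fstl5 (1.57 to 0.693 CPM, -1.20 ± 0.22), a follistatin-like gene, and the activin-type receptor gene Acvr1c (1.05 to 0.535, -1.002 ± 0.27), with a median of -0.061. Acvr1c loses its call without cKO base library 2 (-0.85) or cKO middle library 3 (-0.96). With limma on log2(FPKM + 0.1) Fstl5 (-0.75, adjusted p = 0.0447) and Acvr1c (-0.71, adjusted p = 0.125) are both lost. Among ligands, Inhba, an activin subunit gene, stood at 1.41 and 1.22 CPM (-0.24 ± 0.20), Inhbb at -0.087 ± 0.22 and Bmp4 at -0.22 ± 0.047. The receptor gene Acvr2a stood at 0.074 ± 0.039 and the antagonist gene Nog at -0.018 ± 0.20. The response genes Id1 (-0.11 ± 0.028), Id2 (-0.16 ± 0.027) and Id3 (-0.068 ± 0.022) lay close to 0, far under the fold threshold. In the hedgehog pathway, in which the ligand Shh relieves the block that Ptch1 puts on Smo and the Gli factors carry the signal, 0 of 19 genes were called (median -0.0019; all genes -0.0012). Shh stood at 2.93 and 4.14 CPM (0.47 ± 0.12), Ptch1 at 67.6 and 72.7 (0.076 ± 0.028) and Gli1 at 7.49 and 9.25 (0.28 ± 0.076). In the control, Gli1 was lower in the middle (-1.02 ± 0.082, from 9.73 to 4.88 CPM), and the difference between the steps was called (1.30 ± 0.11, adjusted p = 7.62e-12). Of 18 retinoid genes only Rbp4, the carrier of retinol, was called, lower in the middle (all genes 1.35%; 42.7, 45.8 and 42 CPM in base, 6.34, 6.26 and 7.06 in middle, -2.76 ± 0.056), as it was in the control step (-2.30 ± 0.062), with a list median of -0.027. Stra6, the receptor of that carrier, stood at 0.98 ± 0.096, and passes the threshold without cKO base library 3 (1.05) or cKO middle library 2 (1.01), and Cyp26b1, which breaks down retinoic acid, at 0.50 ± 0.066.

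The marrow and blood lists had medians under 0 in the cKO step and over 0 in the control step, apart from B cell progenitors. Red blood cells had 1 of 12 lower (all genes 1.35%), Hba-a2 (179 to 86.7 CPM, -1.08 ± 0.025; a near-identical copy of Hba-a1, so that reads may be split between them), and a median of -0.48. Neutrophils had 0 of 15 called, 12 lower by adjusted p alone (all genes 22.9%) and a median of -0.46. S100a9, an abundant neutrophil protein gene, stood at 96.1, 95 and 99.7 CPM in cKO base and 74.1, 75.1 and 71.6 in cKO middle (-0.43 ± 0.025). In the control step, all 15 neutrophil genes and 8 of 12 red cell genes were higher in the middle (all genes 1.53%), and the difference between the steps was called for 15 neutrophil and 12 red cell genes, each more negative in the cKO (all genes 2.54%). Cell cycle genes show a like pattern, with 0 of 15 called in the cKO (all genes 3.26%; median -0.26). In the control 8 were called higher (all genes 1.53%), and 10 were called in the difference, each more negative in the cKO (all genes 2.54%). Megakaryocyte and platelet genes had 0 of 10 called in the cKO (all genes 3.26%; median -0.15). In the control 7 were called higher (all genes 1.53%), and 7 were called in the difference, each more negative in the cKO (all genes 2.54%). B cell progenitor genes had 0 of 11 called (median 0.34).

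Bone matrix genes had no called change in the cKO. Of 16 osteoblast and bone matrix genes 0 were called in the cKO (median 0.17), 6 were lower in the control middle (all genes 1.2%; median -0.90), and the difference was called for 10, each more positive in the cKO (all genes 2.16%). Col1a1, the main collagen of bone, stood at 181 CPM in cKO base and 232 in cKO middle (0.33 ± 0.02), against 515 and 84.7 in the control (-2.63 ± 0.019). Control base thus holds more Col1a1 than the other 3 of these pools. Osteoclast genes had 0 of 5 called (median -0.61), and of 10 cartilage genes 1 was lower (all genes 1.35%), Snorc, listed under the older symbol 3110079O15Rik (0.514 to 0.138 CPM, -1.89 ± 0.46, but -0.93 with limma on log2(FPKM + 1); median -0.23).

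Among genes of neighbouring tissues, the airway list had 3 of 9 lower in cKO middle (all genes 1.35%). Bpifa1, a secreted protein gene of upper airway epithelium, stood at 89.9, 86.2 and 89.7 CPM in cKO base and 11.3, 10.7 and 10.6 in cKO middle (-3.06 ± 0.036), Cyp2f2 went from 7.41 to 2.02 (-1.90 ± 0.13), and Sec14l3 had 15 counts in base and 0 in middle (at least 6.49-fold lower, but not called with FPKM + 1). The control step has the same direction and is larger for Bpifa1 (-7.66 ± 0.064). Of 21 motile cilia genes 4 were higher (all genes 1.92%) and 0 lower (median 0.29), namely Ccdc108 (1.21 to 5.71, 2.21 ± 0.16), the axonemal dynein genes Dnah5 (1.85 ± 0.27) and Dnah9 (1.68 ± 0.28), and Ccdc40 (1.16 ± 0.22, and 0.98 without cKO middle library 3), while the master regulator gene Foxj1 stood at 0.77 ± 0.079. None of these cilia calls holds under every alternative: with limma on log2(FPKM + 0.1) Dnah5 (0.69), Dnah9 (0.67, adjusted p = 0.061) and Ccdc40 (0.65, adjusted p = 0.257) are lost, and with FPKM + 1 Ccdc108 (0.77). Striated muscle genes had 5 of 12 lower (all genes 1.35%), among them Ryr1 (3.39 to 0.723, -2.25 ± 0.20) and Acta1 (1.26 to 0.119, -3.39 ± 0.41), and 1 higher, Myh4 (0.193 to 0.653, 1.71 ± 0.39, but 0.66 with FPKM + 0.1), at a summed level of 11.8 to 13.7 CPM in base and 7.38 to 8.19 in middle (median -0.79). Of 17 genes of meninges and their transporters, 2 were higher (all genes 1.92%), Slc47a1 (7.12 to 20.4, 1.49 ± 0.065) and the organic anion transporter gene Slc22a6 (7.13 to 16, 1.13 ± 0.074, but 0.83 with FPKM + 1), and 1 lower (all genes 1.35%), Rbp4 (median 0.18). Slc47a1 went the other way in the control (-1.70 ± 0.067). Of 16 anterior Hox and hindbrain factor genes, 3 were tested and Hoxa2 was lower (all genes 1.35%; 2.53 to 0.871, -1.56 ± 0.21, but -0.76 with FPKM + 1; median 0.011).

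Genes that mark the state and make-up of the samples had 1 call. Of 17 immediate early genes 1 was called lower (all genes 1.35%), Egr4 (0.527 to 0.0494 CPM, -3.33 ± 0.57; median -0.18), which DESeq2 does not call (adjusted p = 0.27), and Fos stood at -0.12 ± 0.10. Of 6 mitochondrially encoded transcripts tested 0 were called (median -0.098); mt-Co2, mt-Co3 and mt-Atp6 are listed at 0 in all 6 libraries. Of 5 sex-linked transcripts 0 were called (median -0.0038), with Xist at 58.9 and 87.5 CPM (0.54 ± 0.029) and the Y-linked genes from -0.07 ± 0.04 for Uty to 0.048 ± 0.043 for Kdm5d. Y-linked transcripts were thus at close levels in both pools, while Xist was higher in the middle by less than the fold threshold.

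**Figure D3:**
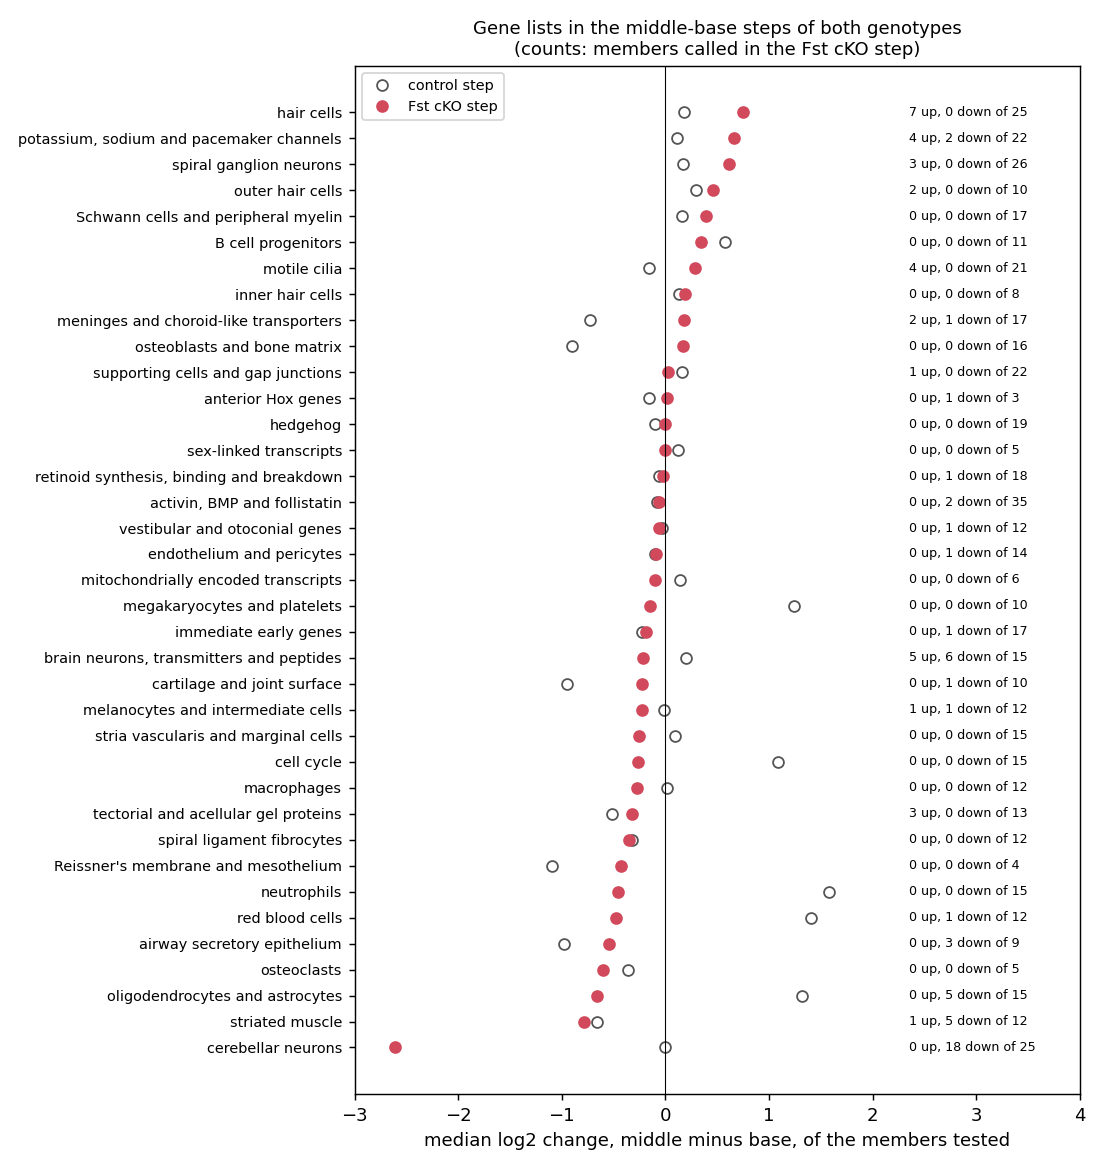
Median log2 change, middle minus base, of the tested members of 37 gene lists in the Fst cKO (filled) and in the control (open), sorted by the cKO value; the numbers on the right count members called in the cKO step. Cerebellar neurons have the lowest cKO median, -2.61, and hair cells the highest, 0.75; the list of 10 neuronal genes chosen from cKO middle is left out.

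The control step from base to middle was set beside the cKO step to see which differences the genotypes share. In the control 488 genes were called (2.73%), 273 with higher levels in the middle (1.53%) and 215 with lower ones (1.2%). By adjusted p alone 31.5% passed in the control and 33.4% in the difference of the steps. Of the 584 genes called in the cKO, 40 were called in the same direction in the control, 6.85% of the cKO calls and 8.2% of the control calls, and 37 in the opposite direction. Genes shared in direction include Tectb (control 2.30 ± 0.35), Rbp4, Bpifa1, Cyp2f2, Acta2 (-1.30 ± 0.047) and Rgs8 (-2.73 ± 0.79). Opposite ones include Mobp, Gad1 (1.36 ± 0.20), Penk (-1.82 ± 0.17), Slc47a1 and Ccdc108 (-2.13 ± 0.58). The difference between the steps was tested as an interaction, which called 841 genes (4.7%), 386 more positive (2.16%) and 455 more negative (2.54%) in the cKO, and 343 of the 584 genes called in the cKO step were among them. By the naming rule the largest positive differences were Chrna6, Tac1, Fam19a2 (8.51 ± 0.74), Hs3st2 (7.72 ± 0.90), Fam163b (5.66 ± 1.02), Kcnq5 (4.76 ± 0.39), Bpifa1 (4.60 ± 0.12) and Ankrd34c (4.38 ± 0.25). Among the largest negative ones were Gabra6, Slc32a1, Mybpc3, Neurod1 (-6.49 ± 0.50), Pax6 (-6.48 ± 0.70), Neurod2 (-6.33 ± 0.87) and Pcp2 (-6.27 ± 1.07). Where no value is printed, a group holds at most 3 counts and the fitted difference depends on the prior count. None of the genes named here for the largest steps in the cKO was called in the control step, and Bpifa1 stands among the positive ones because its fall is smaller in the cKO.

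**Figure D4:**
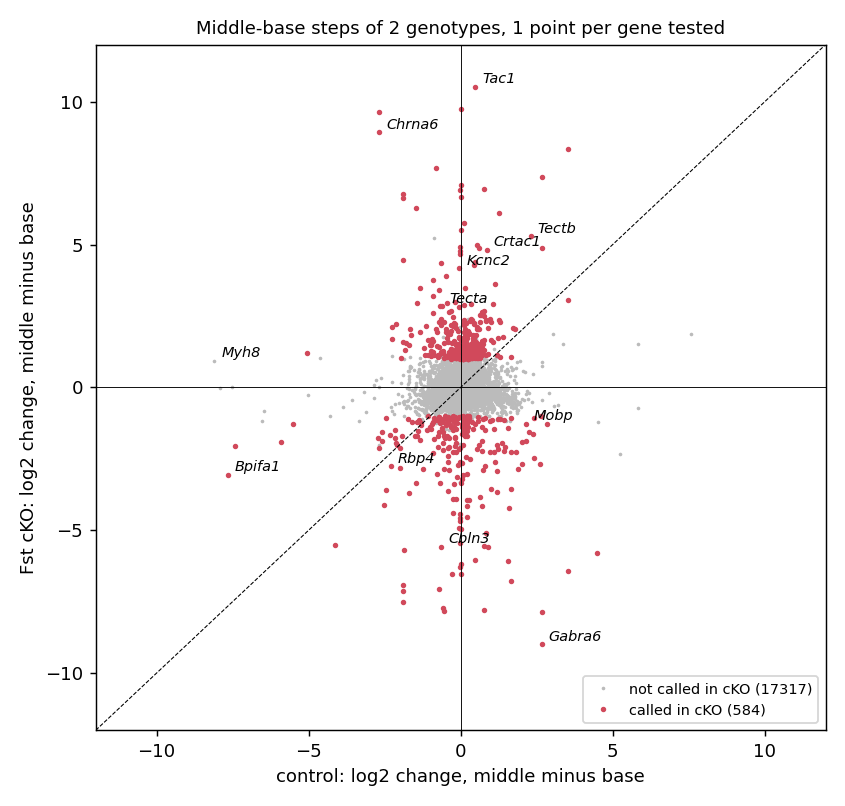
Log2 change, middle minus base, of each of the 17901 genes tested in the control (x axis) and in the Fst cKO (y axis); genes called in the cKO are red, and the dashed line marks equal changes. Genes such as Tac1 and Cbln3 lie near the vertical axis, and Mobp and Rbp4 show opposite and like directions in the genotypes.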

How the data were processed

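RNA of 6 groups of 3 technical libraries was sequenced by the authors. Reads were processed with STAR 2.5.2b and Cuffdiff 2.2.1 on GRCm38/mm10, per the submitters' processing notes, and the counting step is not given in the sources used here. The deposited table holds expected counts (89.2 to 89.9% of values, zeros included, whole within 1e-06) and, beside them, the authors' FPKM values, which served only as an alternative. Each column was mapped to its sample by name, and 0 columns had no sample.

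Expected counts were rounded and tested in edgeR 4.0.16 (R 4.3.3) with TMM scaling, filterByExpr and 1 quasi-likelihood model of all 6 groups (12 residual degrees of freedom, Benjamini-Hochberg adjustment). CPM are counts over the library total. Totals of all libraries were 24446765 to 33732709. Library pairs of a group differed by more than sampling noise (chi-square per degree of freedom 1.19 to 1.60), so each library was kept. Alternatives used DESeq2 1.42.0, limma 3.58.1 on log2(FPKM + 1) and log2(FPKM + 0.1), and the settings named in the closing section. The model was tested on simulated counts.

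Genes named by rule are the 12 called with the largest change each way, with at least 5 CPM in the higher group and a symbol that stands on 1 row and is no predicted name, and the 8 each way for the difference. Other genes are Fst and list members. Some genes that the rule or the lists hold are counted but not reported here. The 38 lists (570 symbols, 569 found, 520 tested) and the comparison were chosen with earlier results of these data known. Positions are from GENCODE M21, and promoters from RefSeq.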

Additional observations from a re-analysis of the deposited data

Results flagged for a closer look

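The change from base to middle differed between the genotypes for 74 genes named above, by the interaction in edgeR's quasi-likelihood test (adjusted p under 0.05 and a difference of at least 1). Each value in parentheses is the log2 change of the Fst cKO minus that of the control, which have 1 pool per region each. It was more positive in the cKO for 44 genes and more negative for 30.

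More negative in the cKO were the cerebellar and related genes Gabra6 (-11.65), Pcp2 (-6.27), Pax6 (-6.48), Neurod1 (-6.49), Neurod2 (-6.33), Cbln3 (-4.93), Cbln1 (-2.29), En2 (-5.92), Cnpy1 (-4.85), Car8 (-3.16) and Slc1a6 (-2.58), together with the signalling and muscle genes Gng13 (-4.75), Mybpc3 (-7.15), Ryr1 (-3.36) and Acta1 (-3.17). The genes of inhibitory transmission were Slc32a1 (-8.55), Gad1 (-3.3), Gad2 (-5.42) and Slc6a5 (-3.24), and the central glia genes were Mobp (-3.44), Mog (-4.11), Ermn (-3.65), Olig1 (-4.87) and Olig2 (-5.27). The channel genes, Kcnd2 (-2.15) and Scn2a1 (-1.24), the receptor gene Acvr1c (-1.21) and the blood genes Hba-a1 (-1.68), Hba-a2 (-1.87) and S100a9 (-1.84) complete them.

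More positive in the cKO were Chrna6 (11.62), Tac1 (10.05), Onecut1 (12.33), Onecut2 (1.36), Vip (6.92), Fam19a2 (8.51), Hs3st2 (7.72), Fam163b (5.66), Ankrd34c (4.38), Art1 (4.26), Crtac1 (3.97), Vgf (2.51), Slc17a6 (1.46), Penk (3.12), Ddc (1.86) and Pou4f1 (1.67) and the potassium channel genes Kcnq5 (4.76), Kcnc2 (4.23), Kcnb2 (2.99), Kcnh7 (1.64) and Kcnd3 (1.16). Among genes of the sensory epithelium and its gels these were Ptprq (2.47), Xirp2 (2.06), Rasd2 (1.07), Tecta (3.46), Tectb (2.99), Otol1 (1.83), Otog (1.1) and Nox3 (4.25). Genes of cilia, airway and muscle were Ccdc108 (4.34), Ccdc40 (1.11), Dnah5 (3.49), Dnah9 (2.63), Bpifa1 (4.6), Cyp2f2 (4.0) and Myh4 (3.98), and transporters and others were Slc47a1 (3.19), Slc22a6 (1.87), Pmel (1.38), Hoxa2 (1.02), Stra6 (1.31) and Col1a1 (2.96). In the hedgehog pathway they were Shh (1.09) and Gli1 (1.3). For Chrna6, Gabra6, Mybpc3, Nox3, Onecut1, Slc32a1, Slc6a5, Tac1 and Vip a group holds at most 3 counts, so that the fitted difference depends on the prior count and is no bound on the fold.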

How the results depend on the processing

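The 584 genes called from cKO base to middle, the 488 of the control step and the 841 of their difference stayed within 1.5 times under DESeq2's size factors (579, 487 and 837), DESeq2 (519, 419 and 735), no low-count filter (708, 540 and 879), fits of the compared libraries only (537, 422 and 834) and limma on log2(FPKM + 0.1) (545, 362 and 794). Without the fold threshold they were 8310, 5647 and 5985, and with limma on log2(FPKM + 1), which tests fewer genes and understates low ones, 155, 90 and 248. A minimum mean of 5 CPM left 164 calls in the cKO step (104 higher and 60 lower). Leaving out 1 library at a time gave 600 to 612 calls in the cKO step, 467 to 489 in the control step and 807 to 833 in the difference.

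Libraries of base and middle share the numbers 1 to 3, which name technical libraries of different pools. Deviations of same-numbered libraries from their group means correlated at 0.011, -0.0147 and 0.005 in the cKO, so the numbers do not pair them. With the replicate number as a block 589, 485 and 828 genes were called, and none of the 138 genes named changed its call.

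Of the genes named, the log2 change turned its sign for Acvr2a (-0.11 with FPKM + 1, -0.13 with FPKM + 0.1), Kdm5d (-0.012 and -0.013), Nog (-0.12 to 0.11 with 1 library left out) and Inhbb (-0.26 to 0.093, likewise), none of them called. Calls were lost for 21 of 118 genes with FPKM + 1, 9 of 138 with FPKM + 0.1, Nefl and Egr4 in DESeq2, Nefl with DESeq2's size factors, and Acvr1c and Ermn without the low-count filter. The cause was not tested.

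Each region of each genotype is 1 pool, so variation between mice cannot be told apart from the regions or genotypes, and no count of libraries changes this. At these depths a library with 0 counts of a gene leaves levels up to 0.0889 to 0.116 CPM undetected.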
